A study of Mus musculus with 8 samples.

Results

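Thymic epithelial cells (TECs) grown as organoids were compared after 3 and 7 days of culture, to ask which genes rose and which fell as the organoids matured. The comparison used the 2 libraries of D7 organoids and the 2 libraries of D3 organoids, which are 4 of the 8 RNA libraries in the series, and the other 4 libraries were TECs taken straight from the thymus (*in vivo* TECs) and TECs cultured on a flat surface (2D-cultured TECs), with 2 of each. All TECs came from wild-type C57BL/6J embryos at E16.5 and were sorted for the epithelial surface protein EpCAM. Organoids of both days grew from these cells in growth factor-reduced Matrigel, a basement membrane gel, in a basal medium with fibroblast growth factor 7 (FGF7), and received the ROCK inhibitor thiazovivin for the first 2 days only. They were freed from the gel in cold PBS before lysis, while 2D-cultured TECs grew on laminin and were lysed at day 3. The 2 libraries of each group are labelled as biological replicates, and neither a litter nor a culture batch is named. Genes were kept where at least 2 of the 4 organoid libraries had at least 1 CPM, a count scaled to the library's total on genes times its TMM factor (a correction for composition), which left 14177 of 56923 genes.

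TECs are the stromal cells that guide T-cell development. Cortical TECs, under the transcription factor Foxn1, produce the ligands and proteases used in T-cell commitment and positive selection, and medullary TECs display self antigens for negative selection. FGF7 is a mesenchymal growth factor that drives TEC proliferation through the epithelial form of its receptor Fgfr2. Thymic medulla also holds small numbers of epithelial cells that resemble those of the airway, the gut and other organs, often called mimetic cells.

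Counts on genes summed to 5639934 and 6561971 in D3 organoids and to 7612532 and 5084715 in D7 organoids, and mitochondrial genes took 9.46% and 8.81% of them at D3 against 6.70% and 6.27% at D7. The label of the cells was first checked against TEC genes. *Pax1* and *Pax9*, transcription factors of the thymic primordium, had at least 279 CPM in each organoid library, with adjusted p from 0.096 to 0.47 between days. *Epcam*, the gene of the sorting marker, had 616 and 583 CPM at D3 and 438 and 434 at D7 (log2 fold change -0.46, adjusted p = 0.03), and with 1 library left out it was called only without D3 replicate 2 (-0.50). Of the cells that could travel with the sort, markers of thymocytes, erythroid cells and endothelium were low in organoids. Mesenchyme markers reached the range of *in vivo* TECs at D7. The 15 thymocyte markers summed to 4.03 and 5.01 CPM at D3 and to 5.29 and 9.91 CPM at D7, against 692 and 308 CPM *in vivo*, and the defining genes *Cd3e*, *Cd3g* and *Cd3d* had at most 5 counts in any organoid library. No count of the hemoglobin genes *Hba-a1*, *Hba-a2*, *Hbb-bt* and *Hbb-bs* or of the endothelial genes *Cdh5* and *Kdr* was found in organoids. The 12 mesenchyme markers summed to 45.9 and 37.2 CPM at D3 and to 104 and 103 CPM at D7, against 106 and 76.8 CPM *in vivo*. Of the 7 that were tested, 3 were higher at D7 (42.9%, against 10.2% of all genes), not all of them with each library left out. These were *Dcn*, *Lum* and *Col3a1*, with log2 fold changes of 3.28, 2.29 and 3.29. *Col3a1* passed the expression filter through the D7 libraries alone, which fixed its direction, so the share is a description only. Of the defining members, *Col3a1* had 0 and 4 counts at D3 and 28 and 15 at D7, and *Col1a1* and *Col1a2* were not called. *Pdgfra* had 1 and 0 counts at D3 and 7 and 1 at D7, and *Pdgfrb* had 0, 0, 2 and 0.

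Between days 3 and 7, 3109 of the 14177 genes changed (21.9%), 1445 of them higher in D7 organoids (10.2%) and 1664 lower (11.7%), at a Benjamini-Hochberg adjusted p of at most 0.05 in the quasi-likelihood test of edgeR. The median log2 fold change over all genes was 0.01. Among the genes called, 893 rose and 878 fell by at least 2-fold, while 283 rose and 50 fell by at least 8-fold. In 175 of the genes that rose, each D3 library had at most 3 counts, and in 27 of those that fell, each D7 library did. The values of the 2 days did not overlap for 65.3% of all genes (33.1% with D7 higher and 32.2% with D7 lower), so a lack of overlap is common in 2 against 2 libraries. With any 1 of the 4 libraries left out, the number of genes called lay between 1255 (without D7 replicate 2) and 2348, and 1000 genes were called each time. Genes described below as risen or fallen kept their call each time, except where a value without 1 library is given. In some lists described below, 1 or 2 members (Notch, Wnt, BMP, interferon, junction, matrix and cyclin genes) or 4 members (chemokines and cytokines) passed the expression filter through the libraries of 1 day alone, which fixed their direction, and list counts are read against the 10.2% and 11.7% of all genes. Signed values in parentheses and amounts by which a gene rose or fell are log2 fold changes of D7 over D3 unless another comparison is named. In bulk RNA, fewer cells of a type and less RNA per cell cannot be told apart.

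**Figure D1:**
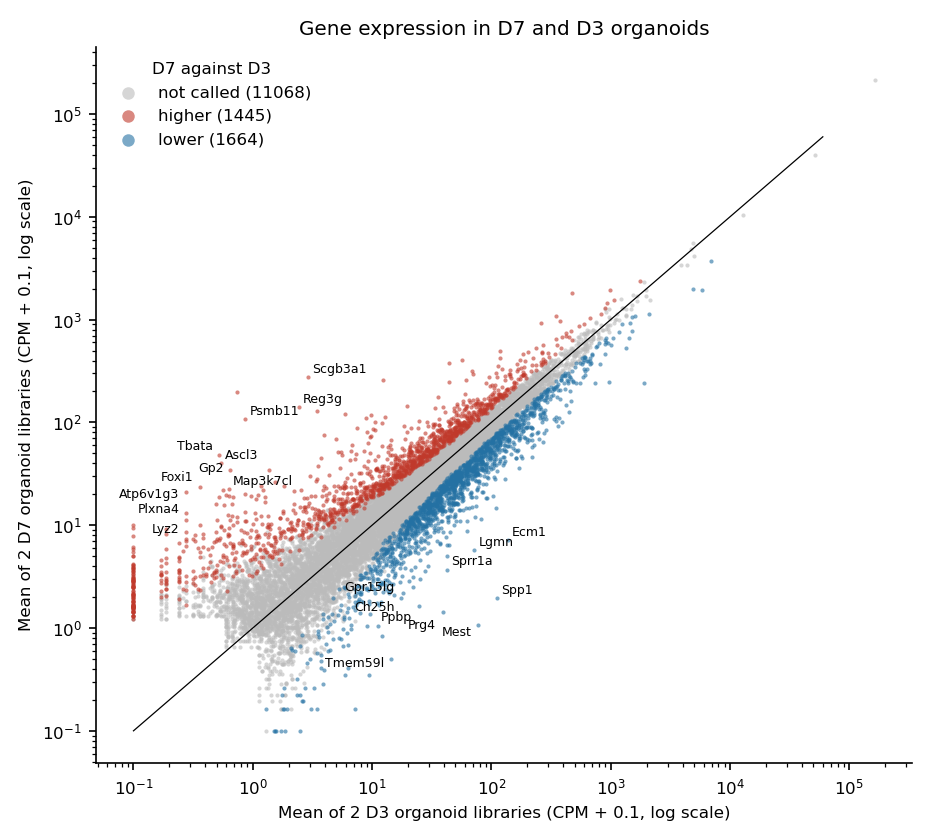
Mean CPM + 0.1 of the 2 D7 libraries (y axis, log scale) against that of the 2 D3 libraries (x axis, log scale) for each of the 14177 genes, with genes higher in D7 organoids in red (1445), lower in blue (1664) and not called in grey (11068). The line marks equal values, the labels name most of the genes with the largest changes, and more red than blue points lie far from the line.

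**Figure D2:**
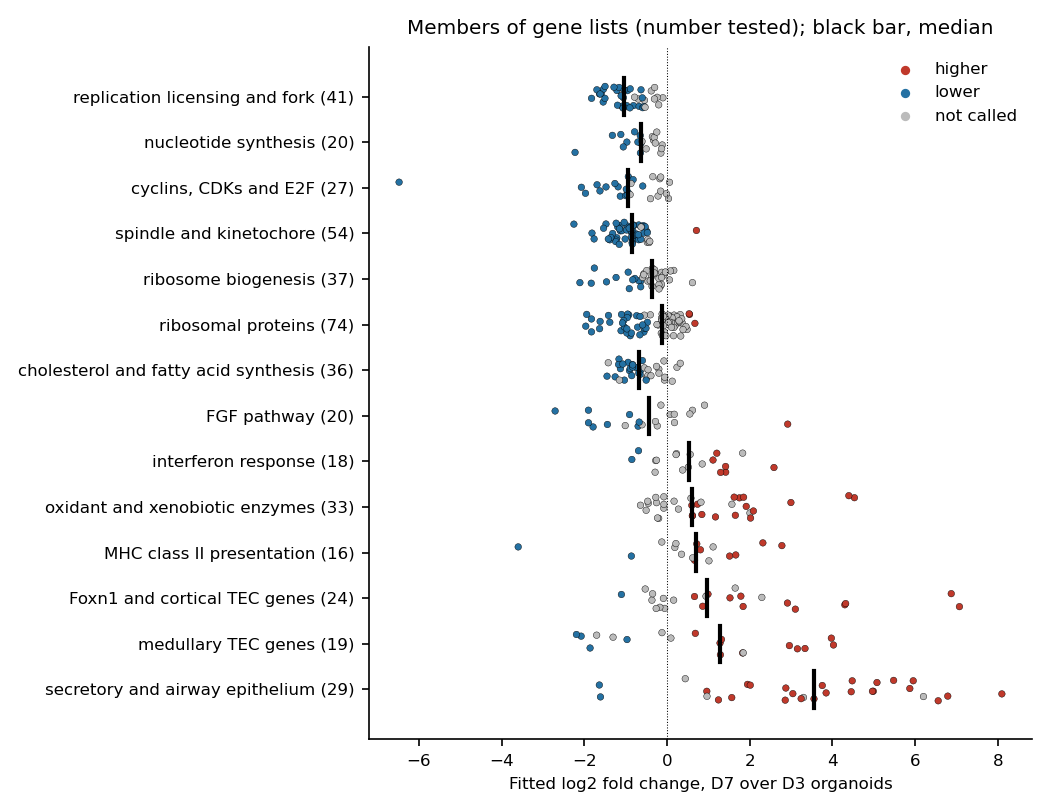
Fitted log2 fold change of D7 over D3 organoids (x axis) for each tested member of 14 gene lists (y axis, number tested in parentheses), with members higher in D7 in red, lower in blue and not called in grey, and black bars at the list medians. The cell cycle and sterol lists lie mostly left of 0 and the lists of cortical TEC, medullary TEC and secretory genes mostly right of it.

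Genes of DNA replication fell together. Of 41 genes of replication licensing and the replication fork, 30 fell and none rose, and their log2 fold changes had a median of -1.03, against 11.7% of all genes lower and a median of 0.01. Of 54 spindle and kinetochore genes, 47 fell and 1 rose (median -0.86), of 27 cyclins, cyclin-dependent kinases (CDKs) and E2F genes 16 fell and none rose (median -0.93), and of 20 genes of nucleotide synthesis 10 fell and none rose (median -0.62). Without D7 replicate 2, the library whose omission lowered these counts most, 16, 27, 10 and 3 members fell, with medians of -0.85, -0.76, -0.76 and -0.52.

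The promoters of these genes carried different letters. Bases 250 before to 50 after the start of the annotated transcript were read from GRCm39 for 14142 of the genes tested, on both strands, and matches are descriptions of these letters only. An E2F site, searched as TTTCCCGC, TTTGGCGC, TTTCGCGC or TTTGCCGC, was in 3.66% of all promoters, in 16 of 41 replication promoters (39.0%), in 10 of 27 of cyclins, CDKs and E2F genes (37.0%), in 2 of 20 of nucleotide synthesis and in 1 of 54 spindle promoters. The cell cycle homology region (CHR), searched as TTTGAA or TTCGAA, was in 16.0% of all promoters and in 29 of 54 spindle promoters (53.7%), and CHR together with a CCAAT box was in 6.63% and in 23 of 54 (42.6%). The CCAAT box alone was in 23 of 41 replication promoters (56.1%), in 35 of 54 spindle promoters (64.8%) and in 38.85% of all promoters. The 4 promoters below are those of the fallen genes with the lowest adjusted p among the matching members of the replication and spindle lists. *Mcm6* and *Mcm4* hold CCAAT matches as well, which are left in small letters. Capitals mark E2F sites in *Mcm6* and *Mcm4* and CHR and CCAAT matches in *Aurkb* and *Ube2c*, and in *Mcm6* the first run of capitals joins 2 overlapping matches, TTTGGCGC and, for the opposite strand, GCGCGAAA. On the opposite strand the CHR reads TTCAAA and the CCAAT box ATTGG.
Mcm6 (chr1:128287403-128287702, GRCm39, minus strand): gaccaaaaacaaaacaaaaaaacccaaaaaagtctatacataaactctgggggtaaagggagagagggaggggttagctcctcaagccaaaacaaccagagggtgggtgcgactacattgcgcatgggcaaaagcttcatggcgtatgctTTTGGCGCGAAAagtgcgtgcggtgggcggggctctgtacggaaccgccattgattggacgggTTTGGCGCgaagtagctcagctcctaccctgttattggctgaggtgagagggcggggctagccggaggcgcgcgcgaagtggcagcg
Mcm4 (chr16:15455215-15455514, GRCm39, minus strand): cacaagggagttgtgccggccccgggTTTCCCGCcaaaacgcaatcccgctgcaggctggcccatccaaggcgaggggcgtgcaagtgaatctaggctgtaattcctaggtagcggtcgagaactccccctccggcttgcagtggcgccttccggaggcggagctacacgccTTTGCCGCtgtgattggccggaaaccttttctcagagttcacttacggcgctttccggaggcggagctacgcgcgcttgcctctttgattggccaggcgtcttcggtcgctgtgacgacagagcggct
Aurkb (chr11:68936217-68936516, GRCm39, plus strand): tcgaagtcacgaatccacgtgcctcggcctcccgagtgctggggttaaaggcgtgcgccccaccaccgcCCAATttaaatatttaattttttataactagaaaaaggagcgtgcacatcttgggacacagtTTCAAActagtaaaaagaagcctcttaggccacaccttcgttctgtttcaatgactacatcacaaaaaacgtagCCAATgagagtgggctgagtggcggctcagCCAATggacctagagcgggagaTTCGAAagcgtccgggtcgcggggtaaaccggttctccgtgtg
Ube2c (chr2:164611568-164611867, GRCm39, plus strand): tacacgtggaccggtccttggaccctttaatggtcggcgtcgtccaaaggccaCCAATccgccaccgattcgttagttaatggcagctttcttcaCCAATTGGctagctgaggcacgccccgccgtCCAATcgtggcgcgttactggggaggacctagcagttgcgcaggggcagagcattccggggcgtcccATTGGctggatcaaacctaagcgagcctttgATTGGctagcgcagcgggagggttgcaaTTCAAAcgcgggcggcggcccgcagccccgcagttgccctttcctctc

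*Mcm6*, a subunit of the replicative helicase, had 245 and 235 CPM in the D3 libraries and 85.8 and 73.4 CPM in the D7 libraries, and its log2 fold change was -1.59 ± 0.18 (standard error), with an adjusted p of 1.3e-05. *Mcm4*, of the same helicase, had 173 and 149 CPM at D3 and 48.0 and 42.7 at D7 (log2 fold change -1.82, standard error 0.21, adjusted p = 1.9e-05). Both D7 libraries lay far below both D3 libraries for each gene. *In vivo* TECs lay between the days, with 141 and 124 CPM of *Mcm6* and 117 and 78.2 CPM of *Mcm4*, and exceeded D7 organoids in both (adjusted p = 0.0037 and 0.0006). All 6 subunits of the helicase (*Mcm2* to *Mcm7*) were lower at D7, with *Mcm5* and *Mcm7* the smallest changes, at -0.81 and -0.63. *Mcm5* kept its call only without D3 replicate 1 (-0.88, against -0.73 without D3 replicate 2, -0.76 without D7 replicate 1 and -0.79 without D7 replicate 2). *Mcm7* kept its call only without D3 replicate 2 (-0.80, against -0.43 without D3 replicate 1, -0.51 without D7 replicate 1 and -0.67 without D7 replicate 2), and its end overlaps *Cops6* on the opposite strand.

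*Rrm2*, the small subunit of ribonucleotide reductase, which makes deoxynucleotides, had 177 and 164 CPM at D3 and 43.1 and 29.5 at D7 (log2 fold change -2.22, standard error 0.24, adjusted p = 1.1e-05). Its partner *Rrm1* changed less, from 234 and 194 to 135 and 142 CPM, and was called only without D3 replicate 2 (-0.76), not without D3 replicate 1 (-0.49), D7 replicate 1 (-0.59) or D7 replicate 2 (-0.59), when 1 library was left out. The 2 days did not overlap for either subunit. *Dut* and *Paics*, enzymes of dUTP removal and purine synthesis, fell by 1.06 and 1.32 on the log2 scale.

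Among the mitotic genes, *Aurkb*, the kinase of the chromosomal passenger complex, had 57.1 and 39.5 CPM at D3 and 11.9 and 7.96 at D7 (log2 fold change -2.25, standard error 0.31, adjusted p = 0.00013). *Ube2c*, which helps the anaphase-promoting complex mark cyclins for destruction, had 209.9 and 187 CPM at D3 and 92.8 and 86.0 at D7 (log2 fold change -1.15, adjusted p = 0.00022). *Ncaph* of condensin, *Cenpa* of centromeric chromatin and the kinase *Aurka* fell by 1.76, 1.81 and 1.47 on the log2 scale. *Mki67*, which encodes the proliferation antigen Ki-67, fell by less, from 372 and 344 to 184 and 233 CPM (-0.78, standard error 0.16). The mitotic genes thus fell by unequal amounts while all remained measurable, and in *Mki67* the D7 libraries were still above 2D-cultured TECs, at 67.3 and 68.7 CPM. *Pttg1*, which encodes securin, was the 1 member of the spindle list that was higher, at 27.5 and 22.6 CPM in D3 and 42.3 and 39.4 in D7 organoids (0.71, adjusted p = 0.023). Its call was lost without D3 replicate 2 (0.57), D7 replicate 1 (0.66) or D7 replicate 2 (0.84).

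Of the cyclins, *Ccna2* of S phase fell from 138 and 111 to 44.4 and 32.0 CPM (-1.69, adjusted p = 9.3e-05), and *Ccne1*, *Ccnd1* and *Ccnb1* fell by 1.47, 0.94 and 0.93 on the log2 scale. *Ccne2* was not called, at 38.3 and 25.6 CPM in D3 and 25.7 and 31.9 in D7 organoids (-0.15), with overlapping libraries. *E2f7*, a repressive member of the E2F family, fell by 1.62 and the proto-oncogene *Myc* by 1.97, the latter from 9.45 and 9.87 to 2.09 and 2.91 CPM. *Cdkn1c*, which encodes the CDK inhibitor p57, rose from 57.1 and 40.5 CPM at D3 to 144 and 115 at D7 (1.42, standard error 0.20, adjusted p = 0.00012), near the *in vivo* level of 158 and 167 CPM. It was 1 of 3 risen members of a list of 21 CDK inhibitors and cell cycle exit genes (14.3%, against 10.2% of all genes). The others that rose were *Btg1*, an antiproliferative gene (1.33), and *Mxd4*, a Max partner (1.11). In the same list 5 members were lower (23.8%, against 11.7% of all genes), and the list median was -0.02. Among those lower were the cyclin-like *Ccng2* (-2.45) and the CDK4 inhibitor *Cdkn2d* (-0.995). *Cdkn1a* (p21, -0.72), *Rb1* (-0.80) and *Rbl1* (-0.98) were lower too, but kept their call in only some of the settings with 1 library left out. *Ccng2* moved from -1.87 without D7 replicate 2 to -3.56 without D7 replicate 1, and *Cdkn2d* lost its call without D7 replicate 2 (-0.82) and without D3 replicate 1 (-0.86). *Cdkn1b* (p27), at 95.2 and 90.1 CPM in D3 and 96.98 and 86.0 in D7 organoids, did not pass the test (-0.02).

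**Figure D3:**
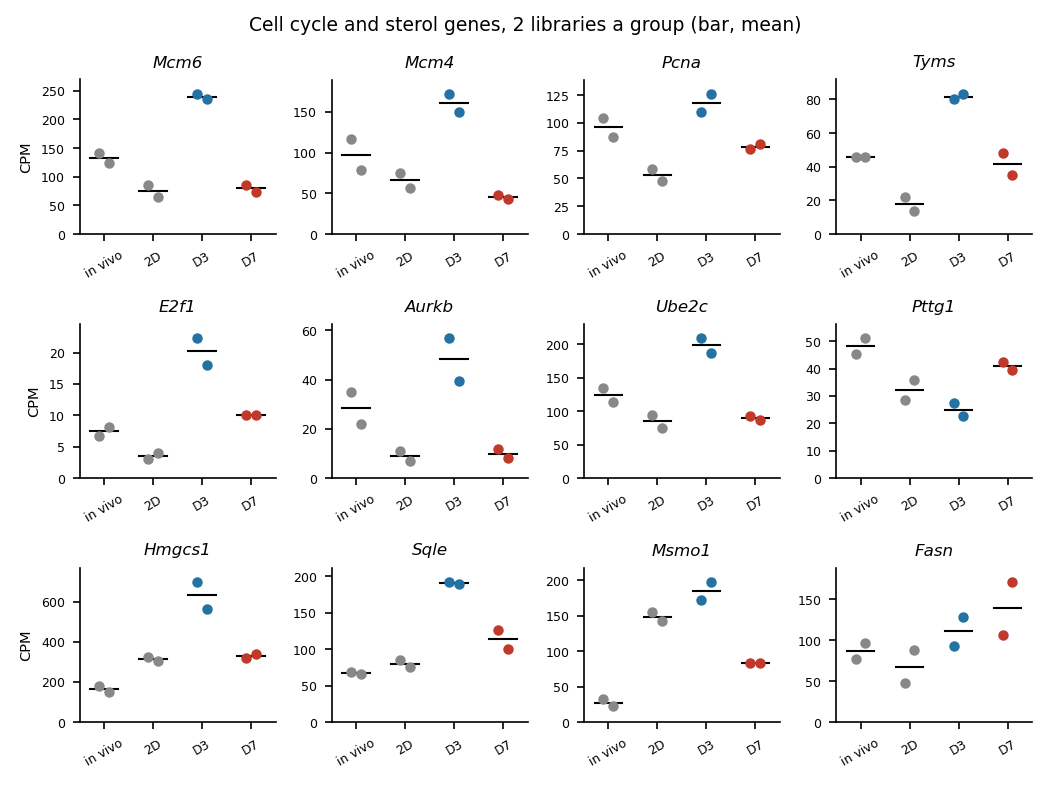
CPM (y axes, from 0) of 8 cell cycle genes and 4 lipid genes in *in vivo* TECs, 2D-cultured TECs and D3 and D7 organoids (x axes), with a point for each of the 2 libraries of a group and a bar at their mean. D7 libraries lie below D3 libraries except in *Pttg1*, where they lie above, and in *Fasn*, where the groups overlap.

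Genes of sterol and fatty acid synthesis formed the next group. Cells make cholesterol from acetyl-CoA by a chain of enzymes whose genes share the activator SREBP2. Of 36 genes of this pathway and of fatty acid synthesis, 20 fell and none rose, with a median log2 fold change of -0.67. Without D7 replicate 2, 10 fell, with a median of -0.63. *Hmgcs1*, which makes the precursor HMG-CoA, had 701 and 562 CPM at D3 and 319 and 339.9 at D7 (log2 fold change -0.94, standard error 0.16, adjusted p = 0.00053), and its end overlaps the low *Nim1k* on the opposite strand. The D7 libraries lay close together and below both D3 libraries. *In vivo* TECs had still less *Hmgcs1*, 178 and 151 CPM (adjusted p = 0.00011 against D7).

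Further along the pathway, *Msmo1*, a demethylase of the sterol ring, fell from 171 and 198 to 82.7 and 82.5 CPM (-1.16, adjusted p = 0.00032). Likewise, among enzymes of fatty acids, the desaturase *Scd2* fell by 0.83 on the log2 scale, from 671 and 685 to 406 and 355 CPM. *Sqle*, squalene epoxidase, was lower at D7 (-0.75) and lost its call without D7 replicate 2 (-0.52). Neither *Srebf2*, which encodes SREBP2, at 73.2 and 81.1 CPM in D3 and 90.2 and 92.3 in D7 organoids, nor *Fasn*, fatty acid synthase, at 92.9 and 128 CPM in D3 and 106 and 172 in D7 organoids, nor *Scd1* passed the test, with log2 fold changes of 0.24, 0.32 and -0.05. The letters TCACNCCAC, a form of the sterol response element (SRE), were in 3 of the 36 promoters of the list (8.33%) and in 1.14% of all promoters. The promoter of *Hmgcs1*, the matching gene with the lowest adjusted p, is shown with its match in capitals.
Hmgcs1 (chr13:120151732-120152031, GRCm39, plus strand): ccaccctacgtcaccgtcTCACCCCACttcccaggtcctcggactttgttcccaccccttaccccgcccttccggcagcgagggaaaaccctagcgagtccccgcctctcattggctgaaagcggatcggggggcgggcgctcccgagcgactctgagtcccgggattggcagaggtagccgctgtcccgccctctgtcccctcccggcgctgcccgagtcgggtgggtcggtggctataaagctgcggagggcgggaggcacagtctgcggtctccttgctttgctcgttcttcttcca

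Of 37 genes of ribosome biogenesis, 12 fell and none rose (median -0.37), and 6 fell without D7 replicate 2. *Gar1*, a subunit of small nucleolar particles that modify ribosomal RNA, fell from 67.7 and 62.6 to 20.3 and 9.13 CPM (-2.10, adjusted p = 6.7e-05), by less without D7 replicate 2 (-1.60) and by more without D7 replicate 1 (-2.83). *Nob1*, an endonuclease of the small subunit, fell by 1.76 on the log2 scale. *Ncl*, nucleolin, did not pass the test (-0.46, adjusted p = 0.069). Of 74 ribosomal protein genes 29 were lower and 3 higher, with a median of -0.12, but 12 were higher and 21 lower without D3 replicate 2. Most of these genes share 50-base stretches with other annotated genes, so that their counts are uncertain, and among the 24 that share none, 10 were lower and none higher.

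In the FGF pathway, the receptor and 4 feedback inhibitors fell and other members did not pass the test or did so in some settings only. FGF7 binds Fgfr2, and the MAP kinase signal that follows induces the inhibitors *Spry1*, *Spry2*, *Spred1*, *Spred2*, *Dusp6* and *Il17rd* and the transcription factors *Etv4* and *Etv5*. Of 20 tested genes of the pathway, 8 were lower (40%, against 11.7% of all genes) and 1 higher, with a median of -0.44, and 5 were lower and none higher without D7 replicate 2. *Fgfr2* had 184 and 172 CPM at D3 and 56.9 and 37.9 at D7 (log2 fold change -1.90, standard error 0.20, adjusted p = 6.8e-06). *In vivo* TECs had 209 and 189 CPM, so the receptor lay near the *in vivo* level at D3 and below it at D7 (-2.06, adjusted p = 4.9e-07).

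*Il17rd*, a membrane inhibitor of FGF signalling, had 213 and 221 CPM at D3 and 64.5 and 51.7 at D7 (-1.90, standard error 0.20, adjusted p = 6.1e-06). Both days stood above *in vivo* TECs, at 13.6 and 8.67 CPM. The phosphatase *Dusp6*, which switches off ERK, had 499.7 and 387 CPM at D3 and 185 and 70.5 at D7 (-1.79, adjusted p = 0.00053), with -1.19 without D7 replicate 2 and -2.65 without D7 replicate 1. *Spry1* and *Spred2* fell, with log2 fold changes of -1.44 and -2.704. In *Dusp6* the D7 libraries differed by more than in *Il17rd*, where they lay close together. *Spry2* (192 and 189 CPM at D3, 132 and 103 at D7) was lower (log2 fold change -0.70) and kept its call only without D7 replicate 1 (-0.89), against -0.69 without D3 replicate 1, -0.71 without D3 replicate 2 and -0.45 without D7 replicate 2. *Spred1* (176 and 146 CPM at D3, 104 and 98.3 at D7) was lower (log2 fold change -0.67), a call lost without D3 replicate 1 (-0.53) and without D7 replicate 2 (-0.56). The member that was higher was the receptor *Fgfr3* (0.875 and 1.57 CPM at D3, 9.48 and 9.52 at D7, log2 fold change 2.92), whose call held only without D3 replicate 2 (3.41), against 2.58 without D3 replicate 1, 2.93 without D7 replicate 1 and 2.99 without D7 replicate 2. *Etv4* (33.8 and 40.9 CPM at D3, 38.9 and 45.8 at D7) and *Etv5* (98.2 and 88.4 CPM at D3, 96.2 and 116 at D7) did not pass the test.

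Other pathways changed in both directions. Of 27 genes of BMP, TGF-beta and Id signalling, 6 rose and 6 fell, and 3 rose and 4 fell without D3 replicate 1. *Id2*, an inhibitor of basic helix-loop-helix factors, rose from 367 and 379 CPM at D3 to 963 and 961 at D7 (1.37, standard error 0.15, adjusted p = 1.2e-05), while *in vivo* TECs had 52.7 and 51.7. *Id4* rose by 1.12, and *Id3* did not pass the test, with 233 and 117 CPM at D7 on either side of 164 and 162 at D3. *Inhba*, a subunit of activin A, fell by 1.49 on the log2 scale, and the BMP ligand *Bmp2* was at least 6.58-fold lower at D7, where it had 1 count in each library. Of 20 Notch pathway genes 5 rose and 4 fell, and 4 rose and 2 fell without D7 replicate 2. The Notch target *Hes1* fell from 186 and 191 to 88.6 and 54.2 CPM (-1.39, adjusted p = 0.00032), whereas its relative *Hes6* rose from 58.3 and 65.2 to 131 and 159.8 (1.23, adjusted p = 0.00011) and the target *Hey1* rose by 0.67. The receptors *Notch1* and *Notch3* and the ligands *Jag1* and *Jag2* did not pass the test.

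Of 25 Wnt pathway genes 8 fell and 3 rose, and 4 fell and 3 rose without D7 replicate 2. *Lgr5*, an R-spondin receptor known from stem cells of other epithelia, fell from 27.8 and 28.5 CPM at D3 to 10.5 and 9.13 at D7 (-1.51, adjusted p = 0.0015) and was nearly absent *in vivo* (0.661 and 1.101 CPM). The secreted *Dkk3* fell by 2.16 on the log2 scale, and *Wnt7b* and the Dickkopf receptor *Kremen2* rose by 1.73 and 2.78. The feedback target *Axin2* did not pass the test (-0.37). Of 29 targets and partners of YAP and SRF 9 fell and 1 rose, and 2 fell without D7 replicate 2. Among the 29, 3 had passed the expression filter through the D3 libraries alone and so had to be lower at D7. *Tpm2*, a tropomyosin, fell from 61.6 and 39.8 to 11.8 and 10.1 CPM (-2.19, adjusted p = 6.3e-06).

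Of 24 genes of Foxn1 and cortical function 12 rose and 1 fell (10.2% of all genes rose), the median of the log2 fold changes was 0.97, and 11 rose with any 1 library left out. Of these 24 genes 3 passed the expression filter through the D7 libraries alone and so had to be higher there (*Tbata*, *Dll4* and *Snap91*). At a mean of at least 10 CPM 19 members were tested, of which 9 rose and 1 fell (median 0.67). *Prss16*, a serine protease used in positive selection, had 43.2 and 44.9 CPM at D3 and 376 and 382 at D7 (log2 fold change 3.10, standard error 0.15, adjusted p = 2.1e-09). *Psmb11*, the thymoproteasome subunit beta5t, had 3 and 7 counts at D3 and 106 and 111 CPM at D7 (7.07, standard error 0.27). *Tbata*, a thymus gene linked to TEC proliferation, had 0.700 and 0.143 CPM at D3 and 47.4 and 49.7 at D7 (6.87, adjusted p = 2.1e-09), with 8.22 without D3 replicate 1 and 6.07 without D3 replicate 2. In these genes both D7 libraries stood many-fold above both D3 libraries, yet below *in vivo* TECs, which had 2704 and 2832 CPM of *Prss16* (D7 over *in vivo* -2.87, adjusted p = 2.6e-10) and 666 and 541 CPM of *Tbata*.

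The chemokine *Ccl25*, which draws T-cell progenitors into the thymus, had 5.25 and 2.43 CPM at D3 and 82.3 and 67.2 at D7 (4.32, adjusted p = 2.8e-08), with 4.94 without D3 replicate 1. *Foxn1* itself rose by 2.91, the protease *Ctsl* by 0.99, the endocytic receptor *Ly75* (CD205) by 0.86, and *Pltp*, a phospholipid transfer protein, by 1.52. *Dll4*, the Notch ligand of T-cell commitment, rose by 4.30 from 1 and 5 counts at D3, and by 3.71 without D3 replicate 1 and 5.63 without D3 replicate 2. *Cxcl12* (263 and 269.9 CPM at D3, 265 and 237 at D7) and *Kitl* (205 and 193 CPM at D3, 200.3 and 182 at D7), which supply progenitors with chemokine and growth factor signals, did not pass the test. The transcription factor *Scx* was the 1 member that fell, from 128 and 129 to 72.0 and 47.4 CPM (-1.101, adjusted p = 0.00091), and it was nearly absent *in vivo* (1.32 and 1.93 CPM).

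The letters GACGC, the core of the known Foxn1 motif, were, on either strand, in 13 of the 24 promoters (54.2%) and in 39.3% of all promoters, since 5 letters match often. Lists that fell had similar shares, with 51.2% of replication, 55.6% of cyclin, CDK and E2F and 50% of spindle promoters. Of genes called higher 32.9% had the letters, and of genes called lower 42.7%, so the match does not set the cortical list apart. The promoters of *Psmb11* and *Prss16*, the matching genes with the lowest adjusted p, are shown with the core or its reverse complement GCGTC in capitals.
Psmb11 (chr14:54862517-54862816, GRCm39, plus strand): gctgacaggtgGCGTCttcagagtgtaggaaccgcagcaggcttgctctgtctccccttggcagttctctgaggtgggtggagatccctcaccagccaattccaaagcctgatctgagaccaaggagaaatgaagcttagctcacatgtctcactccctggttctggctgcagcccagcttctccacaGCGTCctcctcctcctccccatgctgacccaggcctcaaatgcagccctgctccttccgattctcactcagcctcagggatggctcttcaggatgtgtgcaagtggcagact
Prss16 (chr13:22193862-22194161, GRCm39, minus strand): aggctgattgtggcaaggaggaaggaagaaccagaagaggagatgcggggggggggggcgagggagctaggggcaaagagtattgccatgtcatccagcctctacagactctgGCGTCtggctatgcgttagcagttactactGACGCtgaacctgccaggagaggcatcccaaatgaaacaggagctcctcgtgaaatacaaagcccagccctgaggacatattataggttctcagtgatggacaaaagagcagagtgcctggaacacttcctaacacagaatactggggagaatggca

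Genes of medullary TECs split. Of 27 listed genes 19 were tested, of which 10 were higher and 4 lower (median 1.28). Among the 19, 3 passed the expression filter through the D7 libraries alone and 1 through the D3 libraries alone, which fixed their direction. At a mean of at least 10 CPM 10 members were tested, of which 5 were higher and 3 lower (median 0.39). *Aire* and *Fezf2*, the regulators of self-antigen display, had at most 1 count in each organoid library and were not tested. *Cyp26b1*, an enzyme that degrades retinoic acid, rose from 5.78 and 4.43 CPM at D3 to 46.3 and 56.7 at D7 (3.34, standard error 0.32, adjusted p = 2.9e-06), near the 69.7 and 83.8 CPM of *in vivo* TECs. *Nfkb2* of the alternative NF-kappaB pathway rose from 21.5 and 20.3 to 53.7 and 50.5 CPM (1.32), and the transcription factor *Spib* from 1.05 and 0.858 to 7.75 and 9.52 CPM (3.15). *Relb* was higher by 1.28, a call lost without D3 replicate 2 (0.93), and the receptor *Cd40* by 2.96, a call lost without D3 replicate 1 (2.11). The members that fell included the basal keratins *Krt5*, *Krt14* and *Krt17*. *Krt5* had 294 and 207 CPM at D3 and 71.9 and 65.8 at D7 (-1.86, standard error 0.18, adjusted p = 3.2e-06), with 254 and 244 CPM *in vivo*. *Trp63*, the p63 factor of basal epithelium, did not pass the test, at 78.6 and 75.2 CPM in D3 and 75.7 and 65.5 in D7 organoids.

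Part of the MHC class II genes rose. Class II molecules present peptides to CD4 T cells, and the class II transactivator *Ciita* switches on their genes. Of 20 listed genes of the pathway 16 were tested, of which 7 were higher (43.8%, against 10.2% of all genes), 2 lower and 7 not called (median 0.69), and 4 were higher without D3 replicate 1 or without D7 replicate 2. *H2-Aa*, a class II alpha chain, had 9.28 and 9.01 CPM at D3 and 62.0 and 63.5 at D7 (log2 fold change 2.78, standard error 0.21, adjusted p = 2.4e-07). *Cd74*, the invariant chain that guards the peptide groove, had 16.8 and 19.9 CPM at D3 and 79.4 and 105 at D7 (2.32, standard error 0.21, adjusted p = 1.7e-06), and *H2-Ab1* rose by 1.66. *H2-Aa* and *Cd74* stayed below *in vivo* TECs, which had *H2-Aa* at 513 and 501 CPM and *Cd74* at 282 and 306 CPM (D7 over *in vivo* -3.02 and -1.68, adjusted p = 2.6e-09 and 3.9e-06).

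*Ciita* itself had 3.85 and 3.58 CPM at D3 and 5.54 and 9.91 at D7 (1.01, adjusted p = 0.057) and was called only without D7 replicate 1 (1.41, adjusted p = 0.018). *Lgmn*, a lysosomal protease, fell from 78.4 and 64.8 CPM at D3 to 8.25 and 2.91 at D7 (-3.60, adjusted p = 3.4e-06), with -4.61 without D7 replicate 1. Of 20 genes of class I presentation and the proteasome 6 rose and 4 fell, and 2 rose and 1 fell without D3 replicate 1. The immunoproteasome subunit *Psmb10* rose from 23.3 and 21.6 to 57.2 and 61.8 CPM (1.41, adjusted p = 8.1e-05), while *B2m*, the shared light chain, did not pass the test (94.0 and 106 CPM at D3, 97.6 and 84.7 at D7). Of 18 tested interferon response genes 6 rose and 2 fell (median 0.54), and 3 rose and 1 fell without D3 replicate 2. *Irf9* and the RNA sensor *Rigi* rose by 1.20 and 1.11.

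**Figure D4:**
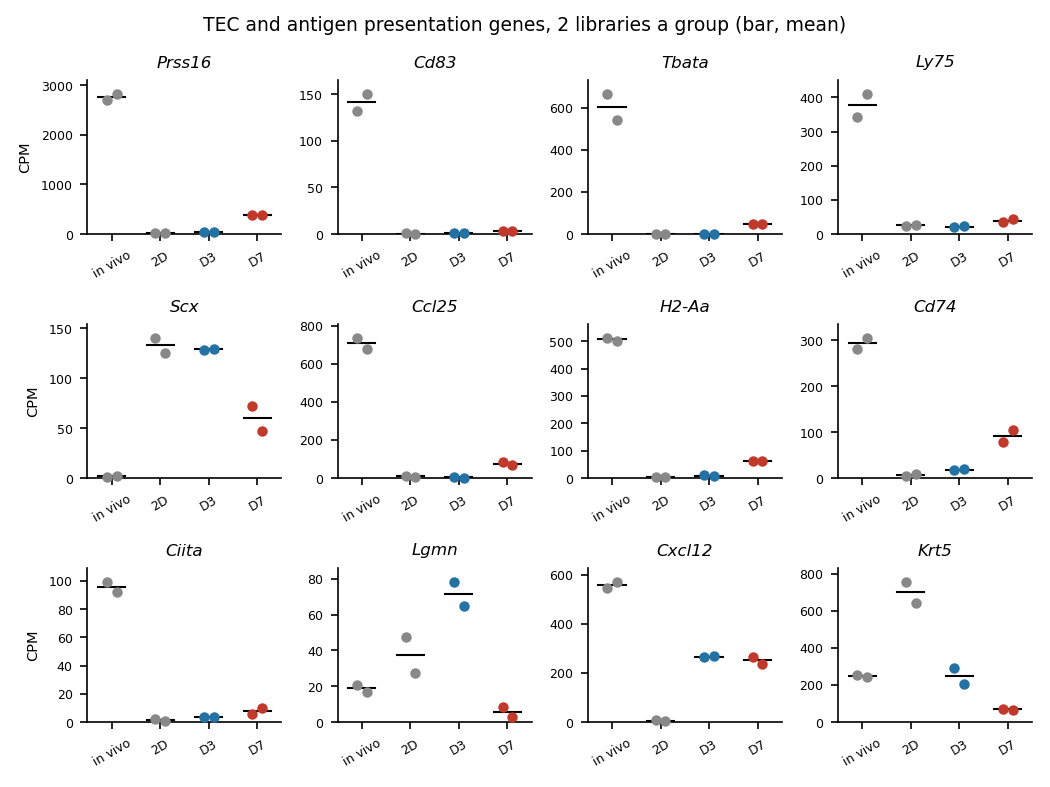
CPM (y axes, from 0) of 12 TEC and antigen presentation genes in *in vivo* TECs, 2D-cultured TECs and D3 and D7 organoids (x axes), with a point for each of the 2 libraries of a group and a bar at their mean. In *Prss16*, *Tbata*, *Ccl25*, *H2-Aa* and *Cd74* the D7 libraries lie above D3 and below *in vivo* TECs, and *Cxcl12* shows no separation of the days.

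Secretory and airway genes had the highest median change of the 14 lists plotted. The list holds secretoglobins, mucins, antimicrobial proteins and the transcription factors of secretory cells. Of 40 listed genes 29 were tested, of which 23 were higher and 2 lower at D7, with a median log2 fold change of 3.55, or 3.24 with members at the detection floor set to their bound. As 10 of these 29 passed the expression filter through the D7 libraries alone, they had to be high there, and their number is a description only. Without D7 replicate 2, 15 were higher, with a median of 3.16. *Bpifa1*, a secreted airway defence protein, rose from 409 and 531 CPM at D3 to 1936 and 1691 at D7 (1.95, standard error 0.16, adjusted p = 4.9e-07), above the 231 and 251 CPM of *in vivo* TECs (D7 over *in vivo* 2.91, adjusted p = 1.1e-09). *Wfdc2*, a protease inhibitor of airway secretions, rose from 921 and 1066 to 1802 and 2069 CPM (0.96, adjusted p = 0.0003). These abundant genes were already present at D3, in contrast to those that follow.

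The secretoglobin *Scgb3a1* had 1.58 and 4.004 CPM at D3 and 124 and 424 at D7 (6.56, adjusted p = 3.9e-07), with 5.50 without D7 replicate 2 and 7.42 without D3 replicate 2. *Reg3g*, an antibacterial lectin, had 1.93 and 2.72 CPM at D3 and 40.6 and 239 at D7 (5.87, adjusted p = 1.6e-05), with 4.18 without D7 replicate 2 and 6.65 without D7 replicate 1. The related *Scgb3a2* had 0 and 1.29 CPM at D3 and 0.861 and 398 at D7. Its value rests on D7 replicate 2 alone, as the log2 fold change of 8.09 became 0.42 (adjusted p = 0.93) without it and its call was also lost without D3 replicate 1 (7.24). Likewise, *Bpifb1* had 0 and 60 counts and *Scgb1a1* 0 and 17 counts in the D7 libraries, and neither was tested. The libraries of D7 organoids therefore differed in their secretory genes, with replicate 2 the higher in *Scgb3a1*, *Scgb3a2*, *Reg3g*, *Bpifb1* and *Scgb1a1*.

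Others agreed between the D7 libraries. *Cftr*, the chloride channel, rose from 4.20 and 2.43 CPM at D3 to 28.7 and 25.4 at D7 (3.04, adjusted p = 4.1e-05), and *Cp*, ceruloplasmin, from 5.25 and 9.58 to 68.7 and 109 CPM (3.55, adjusted p = 1.4e-06). *Agr2*, a chaperone of mucin-producing cells, rose from 0.175 and 2.15 to 15.5 and 17.9 CPM (3.75, adjusted p = 0.0013), with 6.42 without D3 replicate 2 and 2.95 without D3 replicate 1. *Clu*, clusterin, and *Aqp3*, an aquaporin of basal cells, were the 2 members that fell, by 1.64 and 1.61 on the log2 scale. *Lyz2*, lysozyme 2, was at least 23.2-fold higher at D7 (12.1 and 10.1 CPM), while the myeloid genes *Tyrobp*, *Fcer1g* and *Csf1r* had at most 2 counts in each organoid library.

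Lists of rare epithelial cells were added after these values had been seen, so their counts are descriptions. Of their tested members, 6 of 13 ionocyte, 2 of 8 microfold, 4 of 8 tuft and 4 of 8 ciliated cell genes passed the expression filter through the D7 libraries alone, and so had to be higher there. Of 13 tested genes of ionocytes, cells that pump acid and chloride, 9 were higher and 2 lower at D7, and 6 and 0 of these kept their call with any 1 library left out. *Foxi1*, the master regulator of ionocytes, had 3 and 0 counts at D3 and 28.8 and 17.9 CPM at D7, at least 48.9-fold higher. *Atp6v1g3*, a proton pump subunit, had 2 and 0 counts at D3 and 19.2 and 22.7 CPM at D7, at least 43.9-fold higher. *Ascl3*, a transcription factor of duct and ionocyte lineages, had 5 and 0 counts at D3 and 38.9 and 41.0 CPM at D7 (6.58, adjusted p = 3.2e-06), with 5.48 without D3 replicate 2 and 10.98 without D3 replicate 1. These genes were near 0 in D3 organoids, 2D-cultured and *in vivo* TECs alike (at most 5 counts in each library) and present in both D7 libraries. *Atp6v1b1*, another pump subunit, was already present at D3, with 54.8 and 64.4 CPM there and 35.4 and 29.1 at D7.

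Of 8 tested microfold cell genes 4 were higher and 2 lower, and 2 and 0 of these kept their call with any 1 library left out. *Gp2*, a receptor by which microfold cells take up bacteria, had 0.525 and 0.572 CPM at D3 and 31.9 and 36.9 at D7 (5.91, standard error 0.47, adjusted p = 3.7e-07) and at most 7 counts in each *in vivo* or 2D library. Of 8 tuft cell genes 4 were higher, but 0 kept the call each time and the values were small, such as *Dclk1* with at most 23.6 CPM in a D7 library, and *Gnat3* had 0 counts in both D3 libraries and 9 and 10 at D7. Of 8 ciliated cell genes 6 were higher and 3 kept the call each time, among them *Dynlrb2* with 0 counts at D3 and 5.54 and 6.41 CPM at D7, whereas the ciliary master factor *Foxj1* did not pass the test, with 1.58 and 6.72 CPM at D3 and 6.65 and 4.86 at D7. None of 12 enterocyte and hepatocyte genes reached the expression filter, although *Asgr1*, a receptor best known from liver, rose from 0.700 and 0.143 to 16 and 21.8 CPM (5.49, adjusted p = 0.00011), with 6.85 without D3 replicate 1 and 4.71 without D3 replicate 2.

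**Figure D5:**
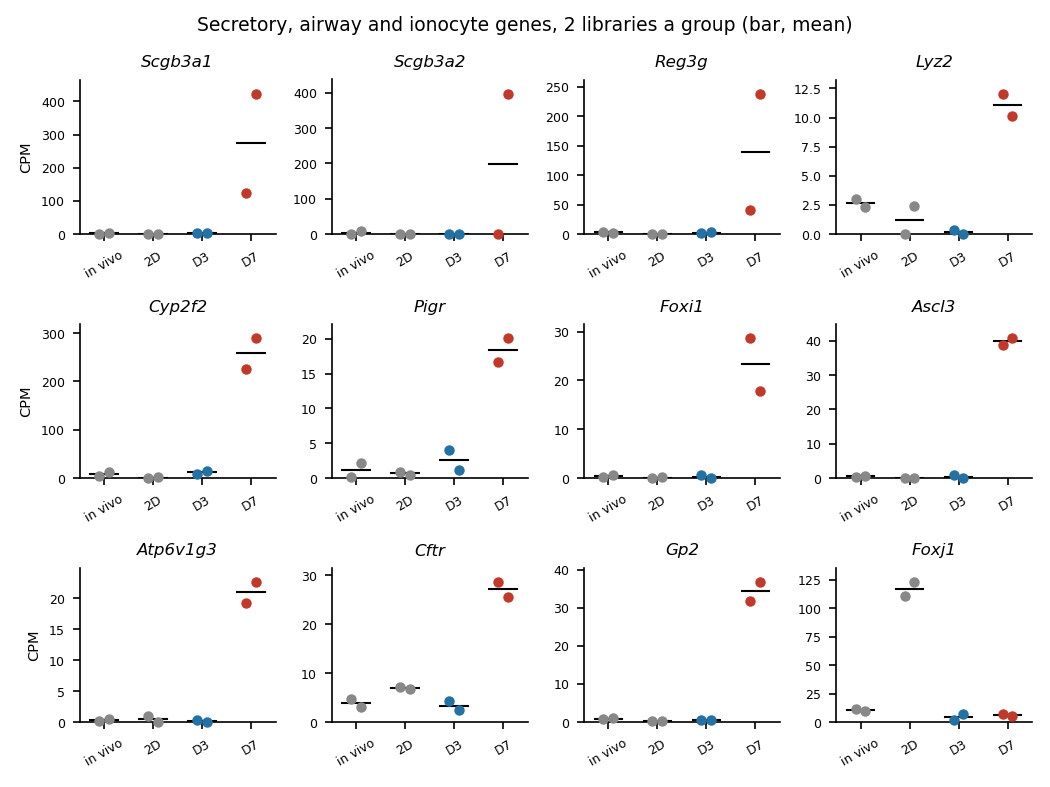
CPM (y axes, from 0) of 12 secretory, ionocyte, microfold and ciliated cell genes in *in vivo* TECs, 2D-cultured TECs and D3 and D7 organoids (x axes), with a point for each of the 2 libraries of a group and a bar at their mean. Of the genes shown, *Scgb3a2* is high in 1 D7 library and near 0 in the other, *Foxj1* is high in 2D-cultured TECs and low at both days, and in the other genes both D7 libraries lie above both D3 libraries.

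Of 33 tested enzymes that handle oxidants and foreign compounds, 16 rose and none fell (median 0.62), 2 of them having passed the expression filter through the D7 libraries alone, and 8 rose and 1 fell without D3 replicate 2. *Cyp2f2*, a cytochrome P450 of airway club cells, rose from 9.10 and 15.2 CPM at D3 to 226 and 291 at D7 (4.40, standard error 0.31, adjusted p = 8.7e-08). *Fmo2*, a flavin monooxygenase of lung, rose from 363 and 332 to 1142 and 1043 CPM (1.65, standard error 0.15, adjusted p = 1.4e-06), while *in vivo* TECs had 0.826 and 0.688 CPM. Thus *Fmo2* was already abundant at D3, while *Cyp2f2* appeared mainly by D7. *Aldh2*, the mitochondrial aldehyde dehydrogenase, rose by 1.85 and the glutathione transferase *Gsto1* by 2.09. The targets of the oxidant sensor NRF2 that are used most often as its readout, *Nqo1*, *Hmox1*, *Gclm* and *Txnrd1*, did not pass the test, with log2 fold changes of -0.45, 1.57, -0.08 and -0.08.

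Keratins and cornified envelope genes shifted. Of 31 tested genes 9 fell and 5 rose, and 8 fell and 2 rose without D7 replicate 2. Of the 31, 3 passed the expression filter through the D3 libraries alone and 1 through the D7 libraries alone, so their direction was fixed. *Krt17* fell from 46.4 and 39.5 to 6.65 and 14.6 CPM and the stress keratin *Krt6a* from 26.4 and 19.7 to 6.28 and 6.99 (-2.07 and -1.80). *Sprr1a*, a cornified envelope precursor, fell from 49.4 and 35.9 to 4.68 and 2.52 CPM (-3.49, standard error 0.28, adjusted p = 3.6e-07), and *Krt15*, a keratin of basal and progenitor cells, rose from 60.6 and 54.9 to 152 and 170.1 CPM (1.48, adjusted p = 0.00011). So did the simple keratin *Krt18*, by 0.86, whereas its partner *Krt8* did not pass the test (-0.41). Of 31 junction and polarity genes 9 rose and 6 fell, and 3 of each without D7 replicate 2. The claudins *Cldn3* and *Cldn10* rose by 1.29 and 4.23, *Cldn6* fell by 2.96 and the cadherin *Cdh3* by 1.55 on the log2 scale, and *Prom1*, a protein of apical protrusions, rose by 1.92. *Tjp1* (ZO-1) and *Ezr* (ezrin) did not pass the test.

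Matrix genes changed in both directions. Of 30 genes of the basement membrane and matrix 9 fell and 5 rose, and 3 fell and 3 rose without D7 replicate 2. *Col18a1*, the collagen of endostatin, fell from 175 and 187 CPM at D3 to 39.0 and 51.9 at D7 (-2.00, standard error 0.21, adjusted p = 8.5e-06), and *Fn1*, fibronectin, fell by 1.01 on the log2 scale. *Col4a1* and *Lamb1* did not pass the test, and the laminin chain *Lamb2* rose by 1.55. *Dcn*, the proteoglycan decorin, rose from 7.35 and 3.43 to 53.2 and 50.1 CPM (3.28, adjusted p = 1.6e-05), with 3.90 without D3 replicate 1. It stands on the list of mesenchyme markers, whose summed values are given above, and the part of mesenchymal cells in its rise was not tested. In a separate list of integrins, proteases and inhibitors, 4 of 26 tested genes were higher and 7 lower. Of these 26 genes 3 passed the expression filter through the D3 libraries alone and so had to be lower at D7. *Mmp9*, a gelatinase of this list, rose from 0.875 and 1.29 to 26.1 and 22.3 CPM (4.44, standard error 0.32, adjusted p = 1.2e-07), and the protease *Adamts1* fell by 2.24. The integrins *Itga6*, *Itgb1* and *Itgb4* did not pass the test.

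Of 19 tested chemokines and cytokines 6 rose and 1 fell, and 2 rose and none fell without D3 replicate 2. *Il34*, a ligand of the CSF1 receptor, rose from 8.23 and 9.44 CPM at D3 to 97.5 and 123 at D7 (3.63, standard error 0.28, adjusted p = 2.3e-07), and *in vivo* TECs had 3.31 and 7.16 CPM. Its receptor gene *Csf1r* had no count in organoids, and the other ligand, *Csf1*, did not pass the test (14.5 and 19.9 CPM at D3, 10.8 and 13.6 at D7). The alarmin *Il33* was abundant at both days (209.7 and 182 CPM at D3, 165 and 140.0 at D7) and did not pass the test.

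Metabolic and stress genes moved in smaller numbers, and their shares are to be read against the 10.2% of all genes that were higher and the 11.7% that were lower. Of 30 genes of glycolysis and hypoxia 7 fell and 4 rose, and 2 of each without D7 replicate 2. The glucose transporter *Slc2a1* fell from 80.0 and 63.6 to 37.7 and 29.5 CPM (-1.09, adjusted p = 0.00081), and *Aldoc*, an aldolase, rose from 42.9 and 53.9 to 148 and 128 (1.51, adjusted p = 8.6e-05). Of 53 genes of oxidative phosphorylation 13 were lower (24.5%) and 6 higher (11.3%), and 6 fell and 1 rose without D7 replicate 2. Of 28 genes of the endoplasmic reticulum and amino acid stress responses 8 fell and 2 rose, and 3 fell and 2 rose without D7 replicate 2. The genes of serine synthesis *Phgdh* and *Psph* fell by 1.52 and 1.37, while *Sesn2*, a stress inhibitor of mTORC1, rose by 1.71 and *Atf4* did not pass the test (0.05). Of 23 heat shock chaperones 6 fell and 1 rose, and 1 fell and none rose without D7 replicate 2. Of 38 genes of lysosomes and autophagy 7 rose and 5 fell, and 1 of each without D7 replicate 2. The early autophagy gene *Wipi1* rose from 48.3 and 52.3 to 126 and 127 CPM (1.33, adjusted p = 4.0e-05). Of 16 immediate early genes 2 were higher, *Jun* (1.18) and *Jund* (1.94), and 2 lower (12.5% each), close to the shares of all genes, while *Fos* and *Egr1*, with log2 fold changes of -0.64 and -0.09, did not pass the test.

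The genes with the largest falls came from several of these groups. *Mest*, an imprinted gene of embryonic growth, had 68.1 and 86.8 CPM at D3 and 1.72 and 0.194 at D7 (-6.11, adjusted p = 5.7e-07), with -8.49 without D7 replicate 1 and -5.40 without D7 replicate 2. *Spp1*, osteopontin, had 113 and 109 CPM at D3 and 1.60 and 2.14 at D7 (-5.91, standard error 0.38, adjusted p = 4.6e-08). *Ecm1*, an extracellular matrix protein, had 158 and 117 CPM at D3 and 6.40 and 7.77 at D7 (-4.29, standard error 0.22, adjusted p = 2.1e-09). In each of them the D7 libraries held a small share of the D3 level. Other large falls were those of *Prg4*, the lubricant proteoglycan (-4.89), the platelet chemokine *Ppbp* (-4.06) and *Thbd*, thrombomodulin (-3.07). 2D-cultured TECs, at 611 and 613 CPM of *Ecm1*, 149.7 and 115 of *Prg4* and 832 and 595 of *Ppbp*, had more of these than D3 organoids, and *in vivo* TECs had at most 1.82 CPM of any.

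Among the largest rises outside the lists, *Map3k7cl* rose from 0.350 and 0.715 to 18.1 and 27.0 CPM (5.31, adjusted p = 6.8e-06), with 5.92 without D3 replicate 2. The semaphorin receptor *Plxna4*, the sodium channel *Scn1a* and the fatty acid transporter *Slc27a2* had at most 3 counts in each D3 library and were at least 27.6-fold, 33.3-fold and 21.0-fold higher at D7, where *Plxna4* had 12.6 and 13.8 CPM, *Scn1a* 16.2 and 15.5 and *Slc27a2* 9.35 and 10.7. At the other end, *Calcb*, a calcitonin gene-related peptide, was at least 7.99-fold lower at D7. *Sprr2f*, of a cornified envelope family with near-identical members, was at least 15.02-fold lower, a call lost without D7 replicate 2 (-5.58 as fitted, adjusted p = 0.063).

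The D7 libraries did not contribute alike to the falls. Among 6195 genes with at least 20 CPM in both D3 libraries, 27 had both D7 libraries below D3 and D7 replicate 2 at least 3-fold below D7 replicate 1, and 24 of these were called lower, while 0 genes showed the reverse. *Ctnnd1*, p120 catenin, had 83.5 and 79.8 CPM at D3 and 20.7 and 2.14 at D7 (-2.73), with -1.90 without D7 replicate 2 and -5.24 without D7 replicate 1. The type I BMP receptor *Acvr1* (14.3 and 4.47 CPM at D7) and the signalling inhibitor *Socs3* (10.6 and 3.30) were among the 27. The GC content of the last 500 bases of transcripts also moved with the change, from a median log2 change of -0.11 in the 2925 genes of lowest GC content to 0.29 in the 2795 genes of highest GC content, of which 439 were higher and 146 lower. With log2 CPM corrected for GC in each library, a setting chosen after seeing the data, 28 replication, 41 spindle and 19 sterol and fatty acid genes fell, and 13 cortical, 9 medullary and 23 secretory genes rose and these lists kept their direction. The ends of *Ccna2*, *Aurka*, *Sqle*, *Srebf2*, *Dusp6*, *Mxd4*, *Cldn3*, *Col18a1*, *Krt6a*, *Slc2a1*, *Wipi1* and *Prg4* overlap genes on the opposite strand, whose reads cannot be told apart where the counting strand is not given. The same holds for *Rb1*, *Ccnd1*, *Ccne2*, *Notch1*, *Pax9*, *Lamb1*, *Itgb4* and *Ezr*. The neighbour of *Rb1*, *Rcbtb2*, had a mean of 67.3 CPM at D3 and 56.6 at D7. That of *Prg4*, *Tpr*, had 684 and 615.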

How the data were processed

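RNA was sequenced from the 3' ends of transcripts (QuantSeq 3', NextSeq 500), so 1 read stands for about 1 transcript end and no length correction applies. The deposited values are raw counts per gene for each library. Per the labels and the methods of the study, the authors aligned reads with STAR 2.7.0e to GRCm39 and went on to TMM factors and limma-voom in R 4.1.2, and neither the counting tool's strand setting nor the annotation release is given in the sources used here. Reads of identical gene copies can be lost or split, which is said above for ribosomal protein genes and *Sprr2f* only. Other named genes also share 50-base words of their last 500 bases with other genes. Among these are *Phgdh* (29.9%), *Irf9* (28.8%), *Mcm7* (22.8%), *Jund* (18.0%), *Mki67* (14.4%) and *Relb* (10.4%). Lower shares are not listed.

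Here, 14177 genes that reached 1 CPM in 2 or more of the 4 organoid libraries were kept. Counts of all 8 libraries were fitted with 4 group means by edgeR 4.0.16 (glmQLFit, glmQLFTest) in R 4.3.3, with TMM factors, which shared 1 estimate of spread. P-values were adjusted over the 14177 genes by Benjamini-Hochberg and called at 0.05. They rest on the spread between the 2 libraries of each of the 4 groups, *in vivo* and 2D-cultured TECs included. The spread of each gene is also drawn towards that of other genes, so it is not that of the organoid libraries alone. An exact permutation test of 2 against 2 libraries cannot go below p = 0.333. CPM values are scaled to each library's counts on genes times its TMM factor. The fit was tested on simulated counts of these genes and libraries in which 200 genes were changed. It called 41.7% of genes changed by 2-fold and 78.1% of those changed by 4-fold. In the data 3109 genes were called, and the adjustment is less strict where more genes change. These shares therefore do not carry over to the data. Bounds marked "at least" set the lower group to 3 counts per library, and cover counting error only. Gene symbols and starts came from GENCODE, and promoter sequence from GRCm39.

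The members, lists and tests were chosen with earlier results of these data known. Genes were named by rule: the 12 largest changes in each direction where both libraries of the day with more counts had 10 CPM or more, up to 8 in each direction near the floor, a set of anchor genes and up to 4 called members of each list in each direction. *Ube2c*, *Pltp*, *Cftr*, *Spred1*, *Fgfr3*, *Foxj1* and the other rare-cell genes of the added lists were named after their values had been seen. Alternatives were another scaling (DESeq2 size factors, library size), DESeq2 1.42.0, limma 3.58.1, other filters, the 4 organoid libraries alone, leaving out each library, a block for the replicate number and a GC correction. The replicate numbers were not taken to pair the samples. No source ties same-numbered samples to a shared preparation, and their deviations from the group means correlated at 0.03 between D3 and D7 organoids and between 0.03 and 0.13 over the 6 pairs of groups. Some genes are not reported here.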

Additional observations from a re-analysis of the deposited data

How the results depend on the processing

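The number of genes higher and lower at D7 was 1528 and 1585 with DESeq2 size factors, 1424 and 1566 scaled by library size, 1377 and 1496 with DESeq2's Wald test, 1644 and 1757 with limma-voom, 1519 and 1711 without a filter, 1106 and 1570 at a mean of at least 10 CPM, 1705 and 1758 from the 4 organoid libraries alone, and 1610 and 1455 after the GC correction, which was chosen after seeing the data. With a limit of 2-fold it was 893 and 878, in all 1771. With any 1 organoid library left out, 1255 to 2348 genes were called, 699 to 988 higher and 556 to 1360 lower, the fewest without D7 replicate 2. With a replicate block, 1651 were higher and 1923 lower, although no source shows that the numbers pair the libraries, so no call is read from the block. None of the 285 named genes that were called changed direction in any setting. The list medians moved by more than the spread between libraries as follows, and the cause was not tested. After the GC correction they were -0.90 for replication, -0.50 for nucleotide synthesis, -0.82 for cyclins, CDKs and E2F, -0.56 for sterols and fatty acids, 1.08 for cortical, 0.87 for medullary, 0.76 for MHC class II, 0.64 for interferon and 0.76 for oxidant genes. At a mean of at least 10 CPM, where fewer members are tested, they were 0.67 for cortical, 0.39 for medullary, -0.67 for FGF, 0.38 for interferon and 2.44 for secretory genes. Over genes that share no 50-base words with others, also chosen after seeing the data, they were 0.90 for cortical, -0.60 for FGF, 0.68 for interferon and 0.82 for oxidant genes. Limma-voom gave -0.56 for nucleotide synthesis, and DESeq2 size factors and Wald test 0.99 each for cortical genes. Leaving out 1 library gave -1.08 to -0.85 for replication, -0.60 to -0.47 for nucleotide synthesis, -1.03 to -0.68 for the spindle, -0.997 to -0.76 for cyclins, -0.70 to -0.63 for sterols, -0.55 to -0.24 for ribosome biogenesis, -0.25 to 0.01 for ribosomal proteins, -0.57 to -0.22 for FGF, 0.88 to 1.13 for cortical, 0.93 to 1.36 for medullary, 0.58 to 0.81 for MHC class II, 0.56 to 0.87 for interferon, 0.64 to 0.74 for oxidant and 3.16 to 4.35 for secretory genes. In simulated counts with 2 libraries a day and 200 genes changed, changes of 2-fold were often missed. The share missed in the data is not known, and a gene that did not pass is not shown to be equal.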
